A study of Mus musculus with 9 samples.

Results

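Müller glia are the radial glia of the retina, and 10 of their support and homeostasis genes were followed in cells sorted as RGCs. The 10 genes were taken by symbol, namely Glul, Rlbp1, Slc1a3, Aqp4, Dkk3, Car14, Car2, Clu, Sox9 and Abca8a. All 10 were found among the 15228 genes with deposited levels, and all 10 were among the 13566 genes tested, whose mean was 0.5 RPKM or more. RPKM is the number of reads divided by exon length and by library size.

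The RNA came from WT C57BL/6J mice in 3 groups of 3 libraries. Ctrl came from normal retinas without injury, ONC from retinas 3 d after optic nerve crush with an intraocular injection of PBS, and TPEN from retinas 3 d after optic nerve crush with an intraocular injection of TPEN, a membrane-permeant chelator of zinc. Optic nerve crush (ONC) damages the axons of RGCs behind the eye. The labels give no injection for Ctrl, so crush and intraocular injection cannot be told apart where ONC or TPEN is compared with Ctrl. Changes described as after or with ONC are differences between the ONC and Ctrl groups. The cells were sorted as CD90.2+ CD48- CD15- CD57-, a gate meant to keep RGCs. Neither the labels nor the methods say whether each library of a group had its own mice, so the p-values measure the spread between these libraries and are too small if libraries share mice.

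Müller glia span the whole thickness of the retina and serve its neurons. They take up glutamate released at synapses and turn it into glutamine, carry water, potassium and acid equivalents away from active neurons, and hand visual chromophore back to cones. After retinal injury they become reactive, which is known for induced intermediate filaments such as GFAP and vimentin, while genes of the resting state can fall. Several of the 10 genes are also used by other cells, among them Slc1a3, Aqp4 and Clu in astrocytes, Sox9 in astrocytes, and Car2 in other glia and some neurons.

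The libraries held between 19946993 and 23109754 reads, and the difference between replicates exceeded sampling noise throughout, so all 9 were kept as separate samples. The gate did not give RGC transcripts alone. The summed level of 6 rod markers was between 15139 and 18017 RPKM in every library, whereas that of 8 RGC markers was between 265 and 365 RPKM and Rbpms, a defining RGC marker, stayed at or under 0.688 RPKM. The 10 genes together summed to between 395 and 486 RPKM. A level in these libraries therefore reflects a mixture, in which fewer Müller glia and less RNA per Müller glial cell cannot be told apart.

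The upstream sequences of 3 genes that fell after ONC (Glul, Rlbp1 and Car14) and of 1 that did not (Slc1a3) are printed here because the first 3 moved the same way. Each is the 250 bases before the RefSeq start of the gene on GRCm38.p6, written 5′ to 3′ on the strand of the gene. Glul is from chr1:153899679-153899928 on the plus strand, Rlbp1 from chr7:79387028-79387277 on the minus strand, Car14 from chr3:95904686-95904935 on the minus strand, and Slc1a3 from chr15:8710808-8711057 on the minus strand. Capitals mark bases that match one of the 6 motifs searched on both strands.
Glul: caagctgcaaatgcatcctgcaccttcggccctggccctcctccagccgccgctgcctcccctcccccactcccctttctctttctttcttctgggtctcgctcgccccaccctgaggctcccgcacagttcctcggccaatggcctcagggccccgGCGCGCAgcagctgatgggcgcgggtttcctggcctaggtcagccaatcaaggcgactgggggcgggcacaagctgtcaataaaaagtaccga
Rlbp1: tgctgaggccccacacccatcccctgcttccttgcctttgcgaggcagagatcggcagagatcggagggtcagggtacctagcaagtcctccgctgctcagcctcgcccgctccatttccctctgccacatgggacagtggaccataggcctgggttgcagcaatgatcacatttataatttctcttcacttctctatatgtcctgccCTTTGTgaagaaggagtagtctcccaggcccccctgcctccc
Car14: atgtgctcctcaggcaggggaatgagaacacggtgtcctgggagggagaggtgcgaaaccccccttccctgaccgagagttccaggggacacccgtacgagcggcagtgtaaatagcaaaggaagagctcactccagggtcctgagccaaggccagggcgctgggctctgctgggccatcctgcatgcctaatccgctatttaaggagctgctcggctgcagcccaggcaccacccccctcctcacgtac
Slc1a3: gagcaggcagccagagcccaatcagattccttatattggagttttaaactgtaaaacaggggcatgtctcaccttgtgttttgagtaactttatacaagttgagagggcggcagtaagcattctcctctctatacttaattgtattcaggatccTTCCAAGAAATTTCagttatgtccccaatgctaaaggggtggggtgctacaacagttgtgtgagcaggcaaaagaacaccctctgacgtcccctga

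The motifs were TTCNNNGAA for STAT factors, ACAATG and ACAAAG for SOX factors, GAANNTTC for heat shock factors, and TGCGCNC and TGCACNC for metal response elements, which bind the zinc sensor MTF1. In Glul the capitals are the reverse complement of TGCGCNC, 93 bases upstream of the start. In Rlbp1 they are the reverse complement of ACAAAG, 42 bases upstream. In Slc1a3 a STAT motif 96 bases upstream overlaps a heat shock motif 90 bases upstream, and the 2 matches form 1 run of capitals. Car14 held none of the 6 motifs in this window, nor did Abca8a, whose sequence is not shown. Glul, Rlbp1 and Car14 thus shared no motif of this set in these windows, and the promoter of Aqp4, the fourth gene that fell, was not analysed here. Of 32851 promoters of the same length, TTCNNNGAA was in 7.02%, ACAATG in 10.7%, ACAAAG in 16.5%, GAANNTTC in 6.69%, TGCGCNC in 12.5% and TGCACNC in 10.4%, so each match is of a kind that many promoters hold. A match describes these letters and is not a site shown to be bound.

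By length-normalized level, Glul and Rlbp1 stood well above the other genes. In Ctrl, mean levels ran from Glul at 173 RPKM (rank 290 of 15228 genes over all libraries) and Rlbp1 at 125 RPKM (rank 370), through Car2 at 61.4, Dkk3 at 51.4 and Clu at 30.6, to Abca8a at 11.6, Aqp4 at 9.60, Slc1a3 at 8.56, Car14 at 5.51 and Sox9 at 4.31 RPKM. The ranges of neighbors in this order did not overlap in Ctrl. In ONC, Clu and Dkk3 overlapped, as did Car14 and Sox9, and Slc1a3 was above Aqp4. In TPEN, Clu and Dkk3 overlapped again, and Slc1a3 overlapped both Abca8a and Aqp4, while Sox9 was above Car14 in all 3 libraries.

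Glul encodes glutamine synthetase, which joins ammonia to glutamate taken up from synapses. It lies on chromosome 1 (153899944 to 153909723, plus strand, GRCm38), with 3323 bases of exon. Its level in RPKM was 174, 169 and 175 in Ctrl, 116 in each ONC library, and 100, 102 and 107 in TPEN. The 3 groups did not overlap, and they stepped down from Ctrl to ONC to TPEN. The means were 173 ± 3.19, 116 ± 0.454 and 103 ± 3.37 RPKM (SD, n = 3 libraries), on 6642 to 12994 reads per library. Glul fell by 32.8% in ONC/Ctrl (log2 fold change -0.57, standard error 0.029, limma adjusted p = 9.7e-07). It fell by a further 11.5% in TPEN/ONC (log2 fold change -0.18, limma adjusted p = 0.00622). The log2 fold change in TPEN/Ctrl was -0.75 (limma adjusted p = 2.0e-07), so Glul was lower in the TPEN libraries than in either other group. The exact permutation test over the 3 groups gave p = 0.00357 (one-sided on the variance ratio), the smallest value that 280 splits of 9 libraries can give. Glul has a near copy, the pseudogene Glns-ps1, that matches 1122 bases of its transcript at 96.8% identity. Its exons also contain the microRNA gene Mir8114 and share 116 bases with Teddm2 on the other strand, which was at a mean of 1.59 RPKM, so part of its reads is uncertain.

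Slc1a3 encodes GLAST, the glutamate transporter that supplies glutamine synthetase in Müller glia. It lies on chromosome 15 (8634124 to 8710764, minus strand). Its level in RPKM was 8.61, 8.24 and 8.83 in Ctrl, 9.67, 8.95 and 10.2 in ONC, and 9.17, 9.72 and 10.4 in TPEN. Every ONC and TPEN library was above every Ctrl library, while ONC and TPEN overlapped. The log2 fold change was 0.16 in ONC/Ctrl (95% interval 0.016 to 0.31, limma adjusted p = 0.120) and 0.19 in TPEN/Ctrl (limma adjusted p = 0.0968), neither of which passed the threshold of 0.05. Tested on whole reads with limma's voom weights, Slc1a3 passed in both (adjusted p = 0.0483 and 0.0236). In TPEN/ONC the log2 fold change was 0.023 (95% interval -0.13 to 0.17, limma adjusted p = 0.886). Exact permutation over the 3 groups gave p = 0.0964, and p = 0.0464 without ONC replicate 2. No injured library was thus below the Ctrl libraries for the transporter, whereas all of them were for the synthetase.

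Rlbp1 encodes CRALBP, which binds retinaldehyde and retinol in Müller glia and in the RPE. It lies on chromosome 7 (79374870 to 79387048, minus strand). Its level in RPKM was 125, 122 and 129 in Ctrl, 111, 110 and 112 in ONC, and 93.7, 92.2 and 97.9 in TPEN. As for Glul, the 3 groups did not overlap and were highest in Ctrl and lowest in TPEN. Rlbp1 fell by 11.6% in ONC/Ctrl (log2 fold change -0.18, standard error 0.031, limma adjusted p = 0.00340). It fell by 14.6% in TPEN/ONC (log2 fold change -0.23, limma adjusted p = 0.00267) and by 24.5% in TPEN/Ctrl (log2 fold change -0.40, limma adjusted p = 3.0e-05). The exact permutation test over the 3 groups gave p = 0.00357, the smallest possible value. The RPE also makes Rlbp1, and 2 of 10 RPE markers were in the table (Rdh5 and Ttr). Their summed level was 8.43 to 9.56 in Ctrl, 10.8 to 13.5 in ONC and 11.2 to 13.3 RPKM in TPEN. Most of that increase was Ttr, as Rdh5 had a log2 fold change of 0.15 in ONC/Ctrl (limma adjusted p = 0.274). The part of the RPE in the level of Rlbp1 was not tested. The other 8 RPE markers, Rpe65 among them, were not among the 15228 genes with deposited levels.

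**Figure D1:**
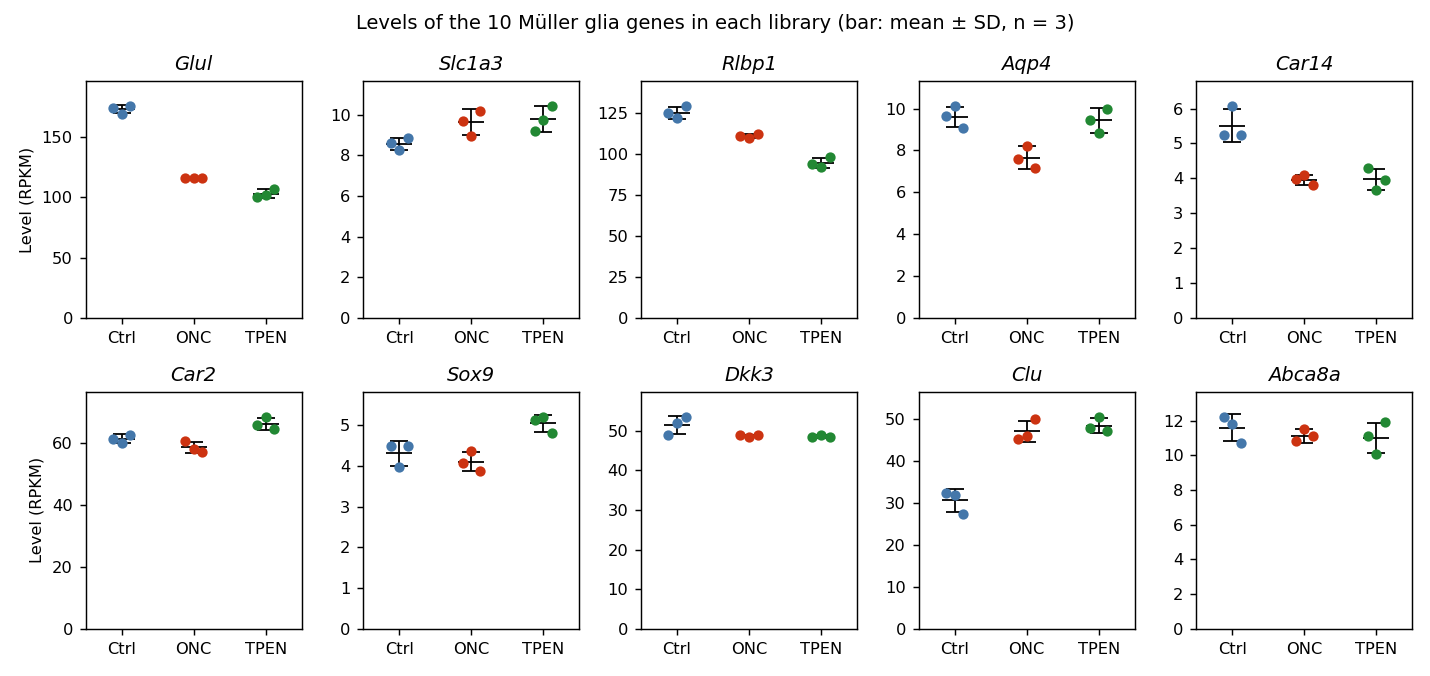
Level in RPKM (vertical axis, from 0) of each of the 10 genes in the 9 libraries, by group on the horizontal axis. Points are libraries and black bars give the mean ± SD (n = 3). Glul and Rlbp1 step down from Ctrl (173 and 125 RPKM) through ONC (116 and 111 RPKM) to TPEN (103 and 94.6 RPKM), Clu steps up from 30.6 to 47.0 RPKM with ONC, and Aqp4 dips only in ONC.

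Aqp4 encodes the water channel of Müller glial and astrocyte endfeet, and lies on chromosome 18. Its level in RPKM was 9.63, 10.1 and 9.09 in Ctrl, 7.60, 8.22 and 7.16 in ONC, and 9.46, 8.84 and 10 in TPEN. All ONC libraries were below all libraries of the other groups, and Ctrl and TPEN overlapped. Aqp4 fell by 20.1% in ONC/Ctrl (log2 fold change -0.32, standard error 0.070, limma adjusted p = 0.010). It was 23.2% higher in TPEN than in ONC (log2 fold change 0.30, limma adjusted p = 0.0320). The log2 fold change in TPEN/Ctrl was -0.024 (95% interval -0.18 to 0.13, limma adjusted p = 0.870). Over the 3 groups, exact permutation gave p = 0.0250. The increase in TPEN/ONC lost its call, with adjusted p between 0.0522 and 0.114, without Ctrl replicate 1, ONC replicate 1, ONC replicate 3, TPEN replicate 1 or TPEN replicate 3. It also lost its call in a fit to the ONC and TPEN libraries alone (adjusted p = 0.0537) and with the replicate number as a block (adjusted p = 0.0724).

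Car14 and Car2 encode carbonic anhydrases, which interconvert carbon dioxide and bicarbonate, at the cell surface for Car14 and in the cytosol for Car2. Car14 lies on chromosome 3 (95897768 to 95904691, minus strand), and 445 of its exon bases lie opposite Aph1a, a gene at a mean of 2.79 RPKM. Its level in RPKM was 5.23, 6.06 and 5.25 in Ctrl, 3.97, 4.09 and 3.82 in ONC, and 4.29, 3.66 and 3.96 in TPEN. Every Ctrl library was above every injured library, and ONC and TPEN overlapped. Car14 fell by 28.2% in ONC/Ctrl (log2 fold change -0.46, standard error 0.083, limma adjusted p = 0.00365) on 201 to 356 reads per library. The log2 fold change was 0.0020 in TPEN/ONC (95% interval -0.19 to 0.19, limma adjusted p = 0.994) and -0.46 in TPEN/Ctrl (limma adjusted p = 0.00545), with an exact permutation p of 0.0357 over the 3 groups.

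Car2 lies on the same chromosome (14886273 to 14900770, plus strand). In RPKM, it was at 61.5, 59.9 and 62.7 in Ctrl, 60.6, 58.2 and 57.1 in ONC, and 66.0, 68.4 and 64.6 in TPEN. The TPEN libraries were above all others, and Ctrl and ONC overlapped. In ONC/Ctrl the log2 fold change was -0.065 (95% interval -0.14 to 0.013, limma adjusted p = 0.236), or -0.11 after quantile normalization between the libraries, where it passed (adjusted p = 0.0397). Car2 rose by 13.1% in TPEN/ONC (log2 fold change 0.18, limma adjusted p = 0.0149), and the exact permutation test over the 3 groups gave p = 0.00714. Without ONC replicate 2, ONC replicate 3 or TPEN replicate 2, the adjusted p of that increase was 0.0591, 0.0574 and 0.0529. TPEN/Ctrl gave a log2 fold change of 0.11 (limma adjusted p = 0.0639), with an adjusted p of 0.0398 after quantile normalization.

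Sox9 encodes a transcription factor that maintains Müller glial identity, and is on chromosome 11 (112782224 to 112787760, plus strand). In RPKM, Sox9 was at 4.48, 3.96 and 4.49 in Ctrl, 4.07, 4.35 and 3.87 in ONC, and 5.13, 5.19 and 4.80 in TPEN. The TPEN libraries were above all others, and Ctrl and ONC overlapped. ONC/Ctrl gave a log2 fold change of -0.070 (95% interval -0.24 to 0.10, limma adjusted p = 0.588). In TPEN/ONC Sox9 was 23.0% higher (log2 fold change 0.29, standard error 0.076, limma adjusted p = 0.0483), close to the threshold. That call was lost, with adjusted p from 0.0524 to 0.143, when any library except Ctrl replicate 2 was left out, and with the replicate number as a block (adjusted p = 0.103). In a fit to the ONC and TPEN libraries alone it was also lost (adjusted p = 0.0592). The exact permutation test over the 3 groups gave p = 0.0179, and p = 0.0571 without TPEN replicate 2. TPEN/Ctrl gave a log2 fold change of 0.22 (limma adjusted p = 0.0871).

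Dkk3, Clu and Abca8a are secreted or membrane proteins with looser ties to one glial task. Clu encodes clusterin, a secreted chaperone and apolipoprotein that is known to rise after nerve injury. It lies on chromosome 14 (65968483 to 65981548, plus strand). In RPKM, Clu was at 32.4, 31.8 and 27.4 in Ctrl, 45.2, 46.0 and 49.9 in ONC, and 47.9, 50.4 and 47.0 in TPEN. All injured libraries were above all Ctrl libraries, and ONC and TPEN overlapped. Clu rose by 53.9% in ONC/Ctrl (log2 fold change 0.62, standard error 0.066, limma adjusted p = 0.000136) and was 58.6% higher in TPEN than in Ctrl (log2 fold change 0.67, limma adjusted p = 0.000135). In TPEN/ONC the log2 fold change was 0.043 (95% interval -0.10 to 0.19, limma adjusted p = 0.760). Over the 3 groups, exact permutation gave p = 0.0179 for Clu.

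Dkk3 encodes a secreted member of the Dickkopf family, and lies on chromosome 7 (112116017 to 112159057, minus strand). In RPKM, it was at 48.9, 51.9 and 53.4 in Ctrl, 48.9, 48.4 and 49.0 in ONC, and 48.3, 48.9 and 48.3 in TPEN. The ONC and TPEN libraries lay within a narrow range at the level of the lowest Ctrl library, which ONC overlapped and TPEN fell just short of. The log2 fold change was -0.075 in ONC/Ctrl (95% interval -0.15 to 0.0018, limma adjusted p = 0.168), -0.0073 in TPEN/ONC (95% interval -0.084 to 0.069, limma adjusted p = 0.932) and -0.082 in TPEN/Ctrl (limma adjusted p = 0.154). Without Ctrl replicate 1, the lowest Ctrl library, the adjusted p was 0.0471 in ONC/Ctrl and 0.0489 in TPEN/Ctrl. The exact permutation p over the 3 groups was 0.0536 with all libraries and 0.0107 without Ctrl replicate 1.

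Abca8a encodes an ABC transporter of the lipid-handling A subfamily, and lies on chromosome 11 (110025634 to 110095978, minus strand). In RPKM, it was at 12.2, 11.8 and 10.7 in Ctrl, 10.8, 11.5 and 11.1 in ONC, and 11.1, 10.1 and 11.9 in TPEN, and all groups overlapped. For Abca8a, the log2 fold change was -0.056 in ONC/Ctrl (95% interval -0.21 to 0.10, limma adjusted p = 0.639) and -0.014 in TPEN/ONC (95% interval -0.17 to 0.14, limma adjusted p = 0.940). In TPEN/Ctrl it was -0.069 (limma adjusted p = 0.582). Exact permutation over the 3 groups gave p = 0.664. The longest single match of Abca8a to its neighbor Abca8b was 1650 bases at 77.8% identity. Abca8b was lower, with means of 3.90 ± 0.0891, 3.43 ± 0.339 and 3.69 ± 0.243 RPKM in Ctrl, ONC and TPEN (SD, n = 3). Abca8b had log2 fold changes of -0.19 in ONC/Ctrl (limma adjusted p = 0.175) and 0.11 in TPEN/ONC (limma adjusted p = 0.523).

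**Figure D2:**
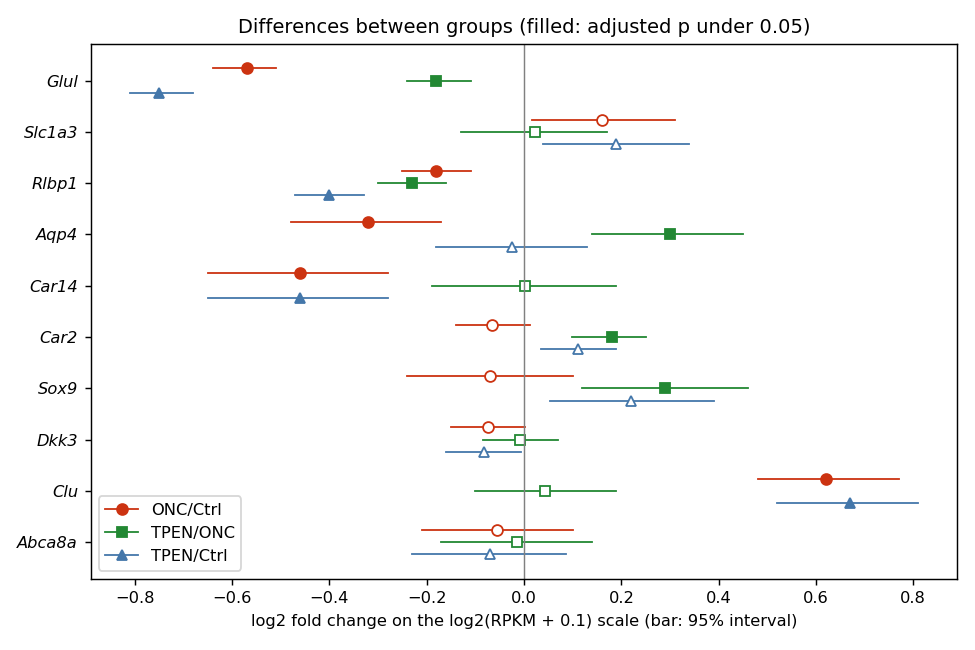
Log2 fold change of the 10 genes on the log2(RPKM + 0.1) scale (horizontal axis) with its 95% interval, for ONC/Ctrl (circles), TPEN/ONC (squares) and TPEN/Ctrl (triangles). Filled symbols have an adjusted p under 0.05. The ONC/Ctrl points run from -0.57 (Glul) to 0.62 (Clu), whereas the TPEN/ONC points stay between -0.23 (Rlbp1) and 0.30 (Aqp4).

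After ONC, 4 of the 10 genes fell at an adjusted p under 0.05 (Glul, Rlbp1, Aqp4 and Car14), where 6.97% of all genes tested fell. Only Clu of the 10 rose, where 11.7% of all genes rose. Clu was also the only DEG among the 10, with a change of at least 1.5-fold, where 5.34% of all genes were DEGs. Its log2 fold change ranged from 0.55 to 0.67 over the alternatives, on both sides of 1.5-fold. Glul was just short of that fold in the other direction, at -0.57 with a range of -0.63 to -0.56, and passed it with quantile normalization (-0.63), with voom (-0.59) and without Ctrl replicate 2 (-0.59). The groups did not overlap for 6 genes (the 5 called genes and Slc1a3), against 36.5% of all genes. The median log2 fold change of the 10 genes was -0.072, against 0.017 for all genes tested. Over all genes 1590 rose and 946 fell. Quantile normalization between the libraries turned that balance to 1262 and 1428, and the voom fit gave 1681 and 1537. The calls of Glul, Rlbp1, Aqp4, Car14 and Clu in ONC/Ctrl held under the 16 alternatives, but none passed a test against a fold change of 1.5.

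In TPEN/ONC, 3 of the 10 genes were higher in TPEN (Aqp4, Car2 and Sox9), where 3.24% of all genes were higher, and 2 were lower (Glul and Rlbp1), where 4.14% were lower. None of the 10 was a DEG in limma, as no change reached 1.5-fold, where 2.03% of all genes were DEGs. The groups did not overlap for these 5 genes, against 28.0% of all genes. The median log2 fold change was 0.013 for the 10 genes and -0.011 for all genes. Without ONC replicate 3, 0 of the 10 genes were called higher in TPEN. The calls of Glul and Rlbp1 held under the 16 alternatives, but not in the test against a fold change of 1.5.

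In TPEN/Ctrl, 1 of the 10 genes was higher (Clu, against 8.36% of all genes) and 3 were lower (Glul, Rlbp1 and Car14, against 5.01%). Glul and Clu were DEGs, where 3.91% of all genes were. Groups did not overlap for 8 genes, against 31.3% of all genes, with a median log2 fold change of -0.047 for the 10 genes and 0.012 for all genes. ONC/Ctrl and TPEN/ONC share the ONC libraries, so an excursion of the ONC libraries alone moves a gene in opposite directions in the 2 comparisons. For the 4 genes that fell with ONC, the log2 fold changes in ONC/Ctrl and TPEN/ONC were -0.57 and -0.18 (Glul), -0.18 and -0.23 (Rlbp1), -0.32 and 0.30 (Aqp4), and -0.46 and 0.0020 (Car14). By these estimates they followed 3 courses with TPEN, a further fall (Glul and Rlbp1), a level above ONC (Aqp4), and a level close to that of ONC (Car14). The last 2 courses are less certain. The call of Aqp4 in TPEN/ONC was lost under 7 of the 16 alternatives, and the 95% interval of Car14 was -0.19 to 0.19.

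Reads of the 10 genes were a small share of each library, 0.160% ± 0.00163 in Ctrl, 0.140% ± 0.00107 in ONC and 0.134% ± 0.00227 in TPEN (SD, n = 3). Glul held most of the difference. It took 35.6% to 36.2% of the reads of the 10 genes in Ctrl, 27.4% to 27.7% in ONC and 25.1% to 25.9% in TPEN. Without Glul, the share of the other 9 genes was 0.102% to 0.103% in Ctrl, 0.101% to 0.102% in ONC and 0.0992% to 0.101% in TPEN.

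Ratios within a library do not depend on the scaling between libraries. The level of each other gene relative to Glul was computed per library to see whether the 10 genes moved as a block. Rlbp1 was at 0.719 to 0.736 of Glul in Ctrl, 0.950 to 0.962 in ONC and 0.907 to 0.937 in TPEN. The ratio thus rose with ONC without overlap between the groups and was slightly lower with TPEN. Clu was at 0.156 to 0.188 of Glul in Ctrl and at 0.388 to 0.429 in ONC, and Slc1a3 at 0.0487 to 0.0504 in Ctrl and at 0.0774 to 0.0880 in ONC.

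Of the 9 ratios, 8 were higher in ONC than in Ctrl in every library, by 0.25 (Aqp4) to 1.20 (Clu) on the log2 scale. The exception was Car14, which fell nearly as much as Glul. Its ratio differed by 0.099 on the log2 scale with overlap (exact permutation p = 0.0607 over the 3 groups, and 0.00714 without Ctrl replicate 2). With TPEN, 7 ratios were higher than in ONC without overlap, that of Rlbp1 was lower, and that of Abca8a overlapped. The exact permutation test over the 3 groups gave the smallest possible p, 0.00357, for 7 of 9 ratios, and 0.00714 for Abca8a; these values are not adjusted, and all 9 ratios share the levels of Glul. Relative to Slc1a3 instead, 6 genes (Glul, Rlbp1, Aqp4, Dkk3, Car14 and Car2) were lower in ONC than in Ctrl without overlap, and only Clu was higher. The 10 genes therefore did not move in proportion, with Glul and Clu at the ends.

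**Figure D3:**
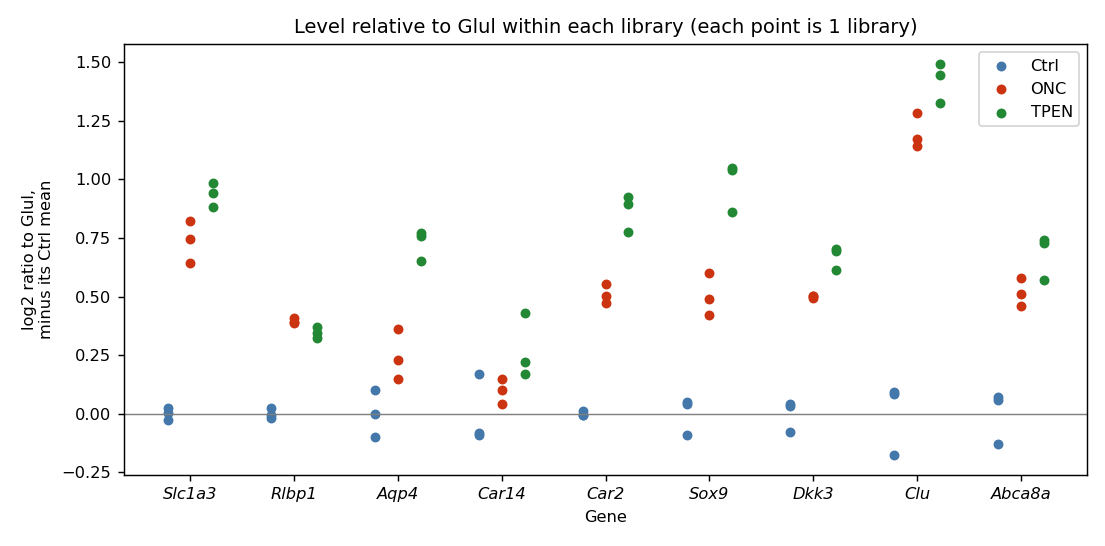
Log2 ratio of the level of 9 genes to that of Glul in the same library, minus the mean of the 3 Ctrl libraries (vertical axis). Each point is 1 library, colored by group. All genes but Car14 have ONC points above every Ctrl point, from 0.25 higher for Aqp4 to 1.20 higher for Clu on average.

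Other genes of Müller glia did not share one direction after ONC. Of 18 tested genes on a list of other Müller glia genes, 7 rose and 4 fell in ONC/Ctrl, with a median log2 fold change of 0.11. Vim, the intermediate filament vimentin, was at 18.1 to 19.6 RPKM in Ctrl and at 55.4 to 58.1 RPKM in ONC (log2 fold change 1.59, limma adjusted p = 4.4e-08). Crym, which binds thyroid hormone, rose with a log2 fold change of 1.03 (limma adjusted p = 2.9e-06). Apoe, the lipid carrier apolipoprotein E, was at 168 to 174 in Ctrl, 264 to 274 in ONC and 175 to 184 RPKM in TPEN. Apoe had log2 fold changes of 0.64 in ONC/Ctrl (limma adjusted p = 4.5e-07) and -0.59 in TPEN/ONC (limma adjusted p = 3.9e-06). Among those that fell, Hes1, a Notch target, had a log2 fold change of -0.76 (limma adjusted p = 0.0350), and Spc25, a kinetochore gene on this list, was at 145 to 156 RPKM in Ctrl and at 94.0 to 97.5 RPKM in ONC (log2 fold change -0.67, limma adjusted p = 9.2e-07). Vegfa, the vascular growth factor, fell with a log2 fold change of -0.39 (limma adjusted p = 1.5e-05). Kcnj10, the Kir4.1 potassium channel found with Aqp4 in endfeet, had a log2 fold change of 0.19 in ONC/Ctrl (limma adjusted p = 0.217) and -0.26 in TPEN/ONC (limma adjusted p = 0.151).

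In TPEN/ONC, 1 of these 18 genes rose and 3 fell, with a median of -0.041. Hkdc1, a hexokinase-related gene, rose (log2 fold change 0.86, limma adjusted p = 0.000997). Apoe, Vim (log2 fold change -0.38, limma adjusted p = 0.00306) and Prdx6, a peroxiredoxin (log2 fold change -0.25, limma adjusted p = 0.0439), fell. Glul and Apoe had close levels in Ctrl (173 and 172 RPKM) and lay far apart in ONC (116 and 268 RPKM).

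Genes of the reactive state moved further than the 10 support genes after ONC. Of 13 tested genes on a list of reactive Müller glia genes, 12 rose in ONC/Ctrl, with a median log2 fold change of 1.97. Edn2, endothelin 2, had the largest change (log2 fold change 3.26, limma adjusted p = 6.0e-08), from 2.32 ± 0.372 to 23.0 ± 1.89 RPKM (SD, n = 3). Gfap went from 2.79 ± 0.0524 to 22.2 ± 0.606 RPKM (log2 fold change 2.95, limma adjusted p = 1.6e-09), Nes, the filament nestin, had a log2 fold change of 2.89 (limma adjusted p = 4.9e-09), and Serpina3n, a serine protease inhibitor, one of 2.69 (limma adjusted p = 2.5e-05). In TPEN/ONC, 4 of the 13 fell, with a median of -0.25. These were Edn2 (log2 fold change -1.15, limma adjusted p = 0.000417), Gfap (-0.62, limma adjusted p = 0.000156), the growth factor gene Fgf2 (-0.58, limma adjusted p = 0.000476) and Vim. Astrocytes and other cells also use Gfap, Vim and Nes. The libraries were a mixture with rod markers at high levels. Reads of the genes on this list, Edn2 among them, therefore cannot be assigned to Müller glia.

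**Figure D4:**
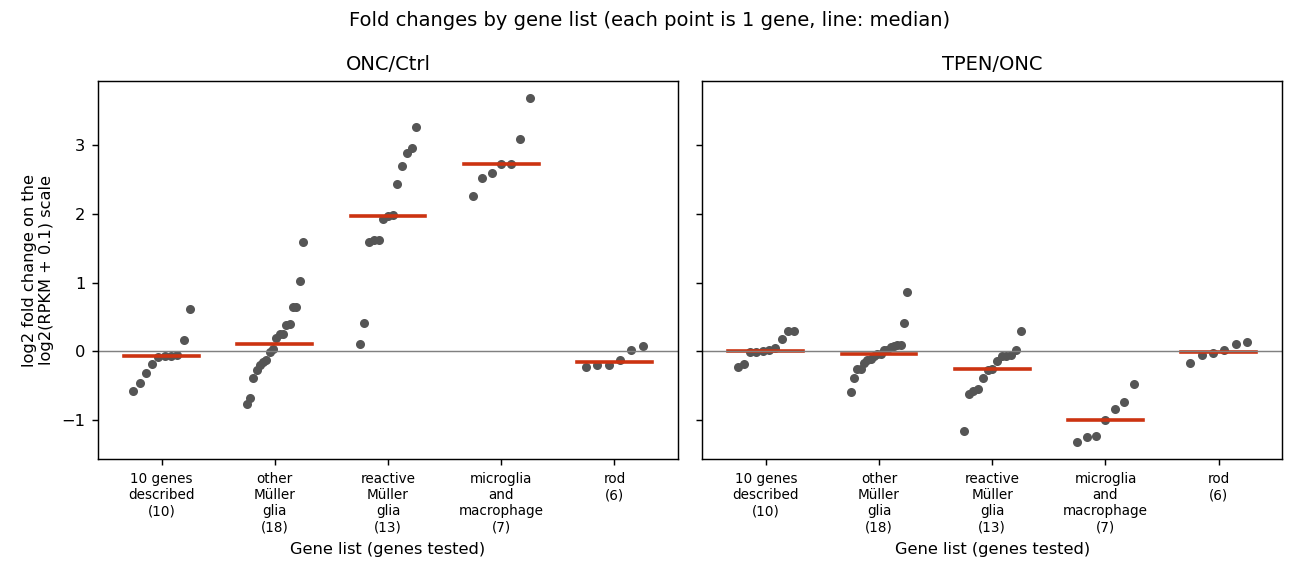
Log2 fold changes on the log2(RPKM + 0.1) scale (vertical axis) in ONC/Ctrl and TPEN/ONC for the 10 genes and for 4 lists (horizontal axis, number of genes tested in parentheses). Each point is 1 gene and the line is the median. In ONC/Ctrl the medians are -0.072 for the 10 genes, 0.11 for other Müller glia genes, 1.97 for reactive Müller glia genes, 2.72 for microglia and macrophage markers and -0.16 for rod markers.

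Among 12 other tested genes of glutamate and glutamine handling, 1 rose and 1 fell in ONC/Ctrl, with a median log2 fold change of -0.086. Slc1a1, the neuronal glutamate transporter EAAC1, rose (log2 fold change 1.20, limma adjusted p = 0.000486) at a low level, from 0.907 ± 0.166 to 2.22 ± 0.399 RPKM (SD, n = 3). Slc38a3, a glutamine transporter of glia, fell from 58.1 ± 1.97 to 51.9 ± 0.456 RPKM (SD, n = 3), with a log2 fold change of -0.16 (limma adjusted p = 0.00536). Slc1a2, the transporter GLT-1, had a log2 fold change of -0.10 (limma adjusted p = 0.0803). In TPEN/ONC, 1 was called, with a list median of 0.014, and this was an increase of the glutamine transporter Slc38a1 (log2 fold change 0.49, limma adjusted p = 0.00595).

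Of 15 tested genes of retinoid handling, 3 fell in ONC/Ctrl, with a list median of 0.019. Retsat, retinol saturase, fell (log2 fold change -0.52, limma adjusted p = 0.0471), as did the photoreceptor genes Abca4 (log2 fold change -0.18, limma adjusted p = 0.00230) and Rdh12 (log2 fold change -0.13). In TPEN/ONC, Abca4 rose (log2 fold change 0.13, limma adjusted p = 0.0293), with a list median of -0.033.

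Of 16 tested genes of potassium, water and acid-base handling, 2 were called in ONC/Ctrl and both fell, with a list median of -0.061. These were the lactate carrier Slc16a1 (log2 fold change -0.19, limma adjusted p = 0.00274) and Dmd (log2 fold change -0.19, limma adjusted p = 0.0464), whose product dystrophin anchors Aqp4 at endfeet. In TPEN/ONC, 1 was called, with a list median of -0.014, and this was an increase of Dmd (log2 fold change 0.30, limma adjusted p = 0.0139). Dmd was at 9.38 to 10.4 RPKM in the Ctrl libraries, 8.44 to 9.01 in the ONC libraries and 10.4 to 11.1 in the TPEN libraries, so it was lowest in ONC, as Aqp4 was.

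The families of single genes gave few calls. Of 4 other tested carbonic anhydrase genes, limma called 0 in either comparison, with medians of -0.10 and -0.040, and voom called 0 and 1. At an unadjusted p under 0.05 there were also 0 and 1. Of 4 other tested SOX genes, Sox8 rose in ONC/Ctrl (log2 fold change 0.55, limma adjusted p = 0.00107) and fell in TPEN/ONC (log2 fold change -0.35, limma adjusted p = 0.0288), while Sox9 did not pass in the first and was higher in the second. The medians of the SOX genes were 0.15 and -0.033. Of 7 tested WNT antagonists and receptors, Kremen1, a receptor of Dickkopf proteins, rose in ONC/Ctrl (log2 fold change 0.69, limma adjusted p = 0.000398) and fell in TPEN/ONC (log2 fold change -0.38, limma adjusted p = 0.0280), with list medians of -0.032 and -0.062. Of 8 other tested ABCA genes, Abca4 alone fell in ONC/Ctrl and alone rose in TPEN/ONC, with list medians of -0.085 and 0.069.

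Markers of other cells moved between the same groups. The summed level of 8 microglia and macrophage markers was 2.22 to 3.26 in Ctrl, 23.5 to 24.4 in ONC and 11.5 to 12.6 RPKM in TPEN, and 7 of 7 tested rose in ONC/Ctrl (median log2 fold change 2.72) while 5 of 7 fell in TPEN/ONC (median -0.99). The sum of 4 astrocyte markers was 24.5 to 25.1, 45.0 to 45.5 and 35.0 to 38.3 RPKM in the 3 groups, with Gfap and Aldh1l1 up in ONC/Ctrl (2 of 4 tested, median 0.64) and Gfap down in TPEN/ONC (median -0.30). Both sums were highest in ONC. Most of the change in the astrocyte sum was Gfap (means of 2.79, 22.2 and 14.4 RPKM), which is also on the list of reactive Müller glia genes. The astrocyte markers Slc1a2 (means of 18.8, 17.5 and 18.1 RPKM) and S100b were not called in either comparison.

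The sum of 6 rod markers was 17242 to 18017 in Ctrl, 15139 to 15352 in ONC and 16237 to 16349 RPKM in TPEN. Of these 6 genes, 4 fell and Sag rose in ONC/Ctrl (median -0.16), and Sag fell in TPEN/ONC (list median -0.0046). Gnat1, rod transducin, had a log2 fold change of -0.23 in ONC/Ctrl (limma adjusted p = 0.000906) and 0.11 in TPEN/ONC (limma adjusted p = 0.0733). The 8 RGC markers summed to 329 to 339, 345 to 365 and 265 to 278 RPKM, with 2 of 5 tested up in ONC/Ctrl (median 0.17), and 1 up and 3 down in TPEN/ONC (median -0.34). Nefl held most of each sum (means of 258, 264 and 198 RPKM). Rbpms was at 0.495 to 0.688 in Ctrl and 0.357 to 0.444 RPKM in ONC, and Pou4f1 at 0.405 to 0.678 and 0.0746 to 0.308. Both were below the filter for testing, and Isl1 was lower without overlap but not called (limma adjusted p = 0.0705). Slc17a6, Sncg, Nefm and Thy1 were higher in ONC than in Ctrl without overlap. Of these, Slc17a6 was below the filter for testing and Thy1 was not called (limma adjusted p = 0.0983). ONC and Ctrl did not overlap for 36.5% of all genes tested. The 5 endothelial cell and pericyte markers in the table summed to 14.5 to 15.2, 16.8 to 17.0 and 17.6 to 18.5 RPKM, with 1 of 4 tested up in ONC/Ctrl (Kdr, median 0.10) and 0 called by limma in TPEN/ONC (median 0.0030, 2 at an unadjusted p under 0.05, 1 by voom). Of the 2 RPE markers tested, Ttr rose in ONC/Ctrl (median 0.33) and 0 were called in TPEN/ONC by limma or voom (median 0.0059, 0 at an unadjusted p under 0.05). The oligodendrocyte marker Mbp had log2 fold changes of 0.070 in ONC/Ctrl (limma adjusted p = 0.847) and -0.0050 in TPEN/ONC (limma adjusted p = 0.994). The part of these shifts in the changes of the 10 genes was not tested.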

How the data were processed

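RNA of cells sorted as RGCs was sequenced in 9 libraries, 3 per group, made with a stranded mRNA kit with molecular identifiers. Reads were trimmed (Trimmomatic 0.36, per the submitters' processing notes) and mapped with STAR to GRCm38/mm10, and the authors deposited RPKM values and exon lengths for 15228 genes. The counting program, the annotation and the use of strand and identifiers in counting are not given in the sources used here. The authors' own fold changes and p-values (9 columns) were not used. RPKM multiplied by length gave whole reads for 100.0% of values within 0.01 read, and so the library totals.

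The 13566 genes whose mean was 0.5 RPKM or more were tested with limma 3.58.1 (R 4.3.3) on log2(RPKM + 0.1), with limma's variance trend on, all 9 libraries in the fit, and Benjamini-Hochberg adjusted p-values over the whole table. The added 0.1 makes the fold changes of low genes smaller. A gene was called at an adjusted p under 0.05, and a DEG also had a fold change of at least 1.5. Single levels and ratios were tested by exact permutation of the variance ratio over 280 splits (one-sided, not adjusted). Percent changes are of mean RPKM. Near copies were sought with blastn 2.17.0. Promoters came from RefSeq (GRCm38.p6), which matched 5 of the 10 genes. The code of the main limma fit was tested on simulated data.

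The 10 genes and the 9 gene and 7 marker lists were chosen with earlier results of these data known. At most the 4 called genes with the largest change per list and comparison were named, with markers of other cells, and a few list genes are not reported here. Slc1a2, Kcnj10 and Vegfa were named after their values were seen. Same-numbered libraries did not deviate together (9 pairs, correlations of -0.062 to 0.027), so libraries were treated as unpaired. The labels do not say whether same-numbered libraries were handled together. Alternatives were quantile normalization, no filter or one of 1 RPKM, a pseudocount of 1, a replicate block, a test against a fold change of 1.5, the 6 libraries compared, leaving out each library, voom on whole reads, and Slc1a3 in place of Glul.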

Additional observations from a re-analysis of the deposited data

How the results depend on the processing

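Of 480 log2 fold changes of the 10 genes under 16 alternatives, 443 kept their direction and their side of the threshold, 20 lost the call, 6 gained one and 11 turned direction. Tested against a fold change of 1.5, the 10 genes gave 0 higher and 0 lower calls for ONC/Ctrl, 0 and 0 for TPEN/ONC, and 0 and 1 for TPEN/Ctrl. That test asks for a larger change by construction. Over all genes it left 297 higher and 0 lower for ONC/Ctrl, 7 and 40 for TPEN/ONC, and 148 and 11 for TPEN/Ctrl. With voom, 2 of the 10 genes were higher in ONC/Ctrl and 2 in TPEN/Ctrl (Slc1a3 beside Clu), and with quantile normalization 2 were higher in TPEN/Ctrl (Car2 beside Clu). The number higher in TPEN/ONC was 1 with the replicate block, 1 in the 6 libraries compared, and 0 to 3 when a library was left out (without each of Ctrl replicate 1, the 3 ONC and the 3 TPEN libraries, 1 or 0). The replicate block changed no other call of the 10 genes. Over all genes in TPEN/ONC, voom called 784 higher and 871 lower, the block 304 and 397, and leaving out a library at least 247 and 272.

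Directions turned only for differences near 0 that were not called. In TPEN/ONC these were Slc1a3 (-0.027 without ONC replicate 2, -0.025 without TPEN replicate 3, up to 0.068), Dkk3 (0.015 with quantile normalization, 1.1e-05 with voom), Car14 (-0.023 without ONC replicate 3, -0.054 without TPEN replicate 1, up to 0.057) and Abca8a (0.0058 with quantile normalization, 0.013 without ONC replicate 2, 0.046 without TPEN replicate 2, down to -0.068). In TPEN/Ctrl it was Aqp4 (0.011 without Ctrl replicate 2, 0.022 without TPEN replicate 2, down to -0.067). With Slc1a3 in place of Glul as the reference, the ONC minus Ctrl log2 ratios were -0.34 for Rlbp1, -0.49 for Aqp4, -0.24 for Dkk3, -0.64 for Car14, -0.23 for Car2, -0.24 for Sox9 and -0.22 for Abca8a, since Glul fell relative to Slc1a3. Car14, with 201 to 356 reads per library, has the fewest reads and the widest intervals.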

Other observations

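As a description, the mean of the centered log2 values of the 10 genes was 0.039 to 0.064 in Ctrl, -0.054 to -0.036 in ONC and -0.028 to 0.018 in TPEN. The genes outside the list whose log2 levels followed this mean most closely over the 9 libraries, which share its 3 groups, were Azi2 (Pearson r = 0.984), Bcat1 (0.976) and Mir124-2hg (0.971). Azi2 was at 42.2 to 42.3 in Ctrl, 35.9 to 36.8 in ONC and 37.4 to 39.4 RPKM in TPEN. Bcat1, a branched-chain aminotransferase that makes glutamate, was at 14.3 to 14.4, 11.3 to 11.8 and 12.3 to 12.9 RPKM, and Mir124-2hg, a host gene of the neuronal microRNA miR-124, at 89.5 to 95.1, 68.2 to 71.1 and 77.5 to 79.1 RPKM.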
